A study of Homo sapiens with 12 samples.

Results

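A set of 10 genes that govern entry from G1 into S phase were followed in LX-2, a cultured line of human hepatic stellate cells, the cells that lay down scar matrix in the injured liver. They were chosen by name: the D-type cyclins CCND1, CCND2 and CCND3, the E-type cyclins CCNE1 and CCNE2, the kinases CDK4 and CDK6, the CDK inhibitors CDKN1B and CDKN2B, and the retinoblastoma gene RB1. These are 10 of the 58735 genes in the deposited tables. All 10 had enough counts to be tested, as did 18560 genes in all. RNA sequencing covered 4 groups of 3 libraries. In SiNAT10_TGFB, cells were transfected with siRNA against NAT10 using Lipofectamine, then given 5 ng/ml TGF-β1 after 48 h and harvested 24 h later. In TGFB, cells received 5 ng/ml TGF-β1 for 24 h. In SiNAT10, cells received the siRNA alone, with a harvest time after transfection not given in the sources used here. In con, cells were untreated. All groups are labelled wild type and were kept in the same medium with serum. No control siRNA is named in the labels, so effects of transfection and of NAT10 knockdown cannot be told apart. NAT10 encodes an RNA acetyltransferase that modifies cytidines in ribosomal, transfer and messenger RNA. The labels call the libraries biological replicates without naming separate cultures or batches, so the p-values here reflect spread among libraries that may be technical.

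In G1, D-type cyclins bind CDK4 or CDK6 and E-type cyclins bind CDK2. Both kinase complexes phosphorylate RB1, the pocket protein that holds E2F transcription factors inactive, and freed E2F drives genes of DNA synthesis. CDKN2B (p15INK4b) binds CDK4 and CDK6 and keeps them from their cyclins, and it is a classic TGF-β target in epithelial cells. CDKN1B (p27KIP1) inhibits CDK2 complexes and is removed through the SKP2 ubiquitin ligase. TGF-β halts the cycle of epithelial cells, whereas stellate cells activated in injured liver proliferate.

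CDKN2B, CCNE1 and CDK6, which rose with TGF-β1 in untransfected cells, are shown with the DNA just upstream of their annotated exons, because they rose in the same comparison. CCND1 rose there too but had no stretch available to show. Each stretch comes from RefSeq's GRCh38.p14 promoter table, is written 5′ to 3′ on the gene's strand and is trimmed to the part outside the gene's GENCODE release 29 exons. Capitals mark the GC box GGGCGG or its reverse complement CCGCCC. The CDKN2B stretch is chr9:22009364-22009555 (minus strand), the CCNE1 stretch is chr19:29811741-29811897 (plus strand) and the CDK6 stretch is chr7:92836595-92836823 (minus strand).
CDKN2B: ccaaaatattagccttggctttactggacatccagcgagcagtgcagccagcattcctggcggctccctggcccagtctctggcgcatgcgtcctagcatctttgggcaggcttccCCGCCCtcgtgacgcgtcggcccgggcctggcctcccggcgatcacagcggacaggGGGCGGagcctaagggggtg
CCNE1: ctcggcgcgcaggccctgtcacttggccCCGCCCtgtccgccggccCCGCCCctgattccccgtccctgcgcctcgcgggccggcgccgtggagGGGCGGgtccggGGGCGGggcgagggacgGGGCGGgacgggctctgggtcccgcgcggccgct
CDK6: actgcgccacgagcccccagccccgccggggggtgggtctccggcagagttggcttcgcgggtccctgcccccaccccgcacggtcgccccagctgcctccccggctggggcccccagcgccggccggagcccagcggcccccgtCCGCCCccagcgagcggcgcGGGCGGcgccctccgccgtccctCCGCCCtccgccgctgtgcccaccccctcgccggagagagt
The CDKN2B stretch of 192 bases held 2 GC boxes, the CCNE1 stretch of 157 bases held 5 and the CDK6 stretch of 229 bases held 3. The GC content of these stretches was 66.15% for CDKN2B, 83.44% for CCNE1 and 82.1% for CDK6. CDK6 has a second start in the RefSeq table, inside the gene, whose upstream stretch of 250 bases is not shown and held 0 GC boxes. Among 35116 RefSeq promoters cut to the same lengths, 33.4% held at least 1 GC box at the CDKN2B length, 27.1% at the CCNE1 length, 39.8% at the CDK6 length and 42.6% at 250 bases. The letters CAGAC, or GTCTG on the other strand, were in none of the stretches shown nor in that of the second CDK6 start, and were held by 31.5% of promoters at the CDKN2B length, 27% at the CCNE1 length, 35.6% at the CDK6 length and 38% at 250 bases. Among members not called in TGFB against con, CCND3 held 1 GC box in 210 bases at 1 RefSeq start and 0 in 250 bases at another. RB1 held 0 in 200 bases. Of all promoters, 37.2% held a GC box at 210 bases and 35% at 200 bases. No stretch of CCND3 or RB1 held CAGAC or GTCTG. These matches describe the sequences and say nothing of which factors bind.

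Total counts per library ran from 25877008 to 35132582, and CPM here means the count relative to library size after TMM scaling. In the siRNA groups NAT10 stood at 15.8 to 20.7 CPM under TGF-β1 and at 17.9 to 19.5 CPM without it, against 65.6 to 67.8 CPM in TGFB and 62.9 to 69.9 CPM in con. Principal component 1 (50.2% of variance) separated siRNA libraries from the rest, and component 2 (16.2%) separated TGF-β1 libraries from the rest. VIM, COL1A1 and SPARC, markers of stellate and other mesenchymal cells, were abundant, while LRAT was at 0 in every library and DES had at most 8 counts in any. The summed level of 14 stellate and mesenchymal markers was 4722 to 4974 CPM in SiNAT10_TGFB, 13720 to 14500 CPM in TGFB, 3413 to 3606 CPM in SiNAT10 and 6072 to 6365 CPM in con. Single markers did not all follow this sum. Of 12 tested, 8 were higher and 1 lower in TGFB against con (24.1% of all genes were called). In SiNAT10 against con, 1 was higher and 9 lower (52.8% of all genes were called). The exceptions were HAND2 (log2 fold change −0.85) in the first and SPARC (0.73) in the second. ACTA2 averaged 3.27 to 4.33 CPM over the groups. The 8 hepatocyte markers summed to at most 28.6 CPM in any library, nearly all of it SERPINA1, with TTR and FGB at 0. The 5 cholangiocyte markers summed to 66.2 to 73.9 CPM in SiNAT10 and to 40.6 to 47.4 CPM in the other groups, mostly SOX9. The part of these marker shifts in the results was not tested.

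Across all genes the siRNA comparisons followed transcript GC content, with Spearman correlations of −0.357 (SiNAT10_TGFB against TGFB) and −0.335 (SiNAT10 against con) between log2 fold change and GC percent over 13039 genes, a description across genes that are not independent. The corresponding values were 0.125 for TGFB against con and 0.08 for SiNAT10_TGFB against SiNAT10. Members differ in GC content, which was 38.5% in CCNE2, 39.3% in RB1 and 43% in CDK6 but 55.9% in CCND1 and CDK4 and 59.3% in CCND3. For members and named genes, values after removal of this trend are given where it ended a call, made one or turned a direction, and for some others that it moved.

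CCND1 RNA dominated this set in every group. Per unit of gene length it stood at 201.5 ± 4.02 FPKM in SiNAT10_TGFB, 194.3 ± 10.5 FPKM in TGFB, 166.7 ± 5.31 FPKM in SiNAT10 and 114.5 ± 3.23 FPKM in con (mean ± SD, n = 3). CDK4 came next in all 4 groups, at 45.4 FPKM in SiNAT10_TGFB, 33.7 FPKM in TGFB, 45.9 FPKM in SiNAT10 and 35.6 FPKM in con on average. At the other end, CCND2 was lowest in all 4 groups, between 0.0756 and 0.264 FPKM in single libraries, and rested on 16 to 55 counts. Between these lay RB1, CDKN1B, CCND3 and CDK6 at 13.3 to 28.9 FPKM on average, then CCNE1 at 10.5 to 14.9, CDKN2B at 3.86 to 9.63 and CCNE2 at 2.35 to 3.95 FPKM. In con the order was CCND1, CDK4, RB1, CDKN1B, CCND3, CDK6, CCNE1, CDKN2B, CCNE2 and CCND2, and among neighbours the library ranges overlapped for RB1 and CDKN1B alone. In TGFB the ranges overlapped for CCND3 and RB1, for RB1 and CDK6, and for CDKN1B and CCNE1. In SiNAT10 they overlapped for RB1 and CDKN1B, for CDKN1B and CCND3, and for CDKN2B and CCNE2. In SiNAT10_TGFB they overlapped for CDKN1B and CDK6 and for CDK6 and CCND3.

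**Figure D1:**
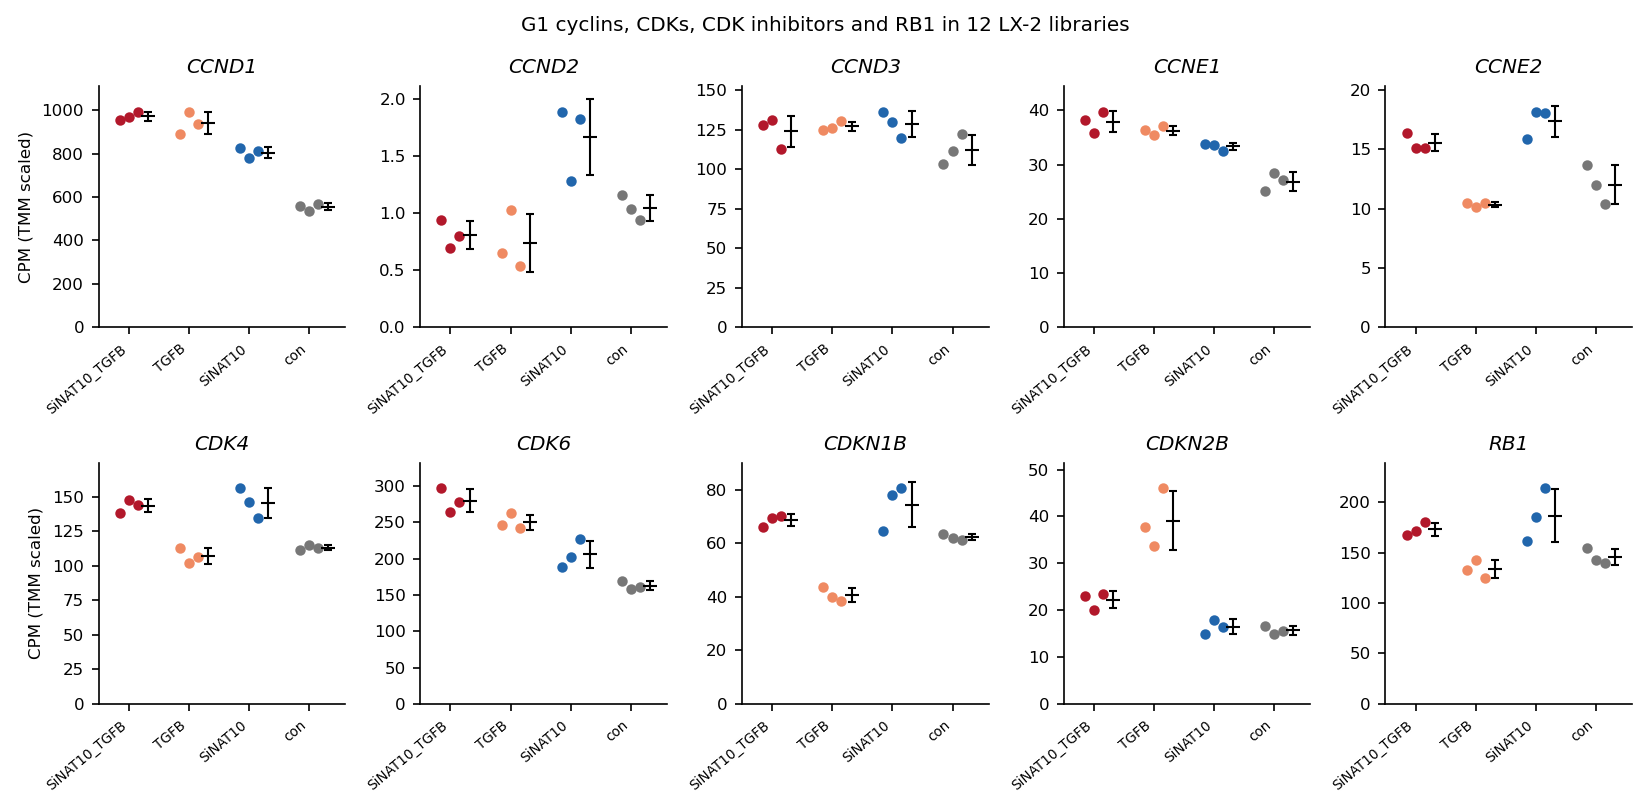
CPM (TMM scaled) of each member in every library; points are the 3 libraries of a group and the bar beside them is mean ± SD, with each vertical axis starting at 0. CDKN2B stands at 33.7 to 46.0 CPM in TGFB, above every other group, and CDKN1B stands at 38.6 to 43.7 CPM there, below every other group.

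TGF-β1 in untransfected cells raised CDKN2B, CCND1, CDK6 and CCNE1 and lowered CDKN1B. CDKN2B changed most, with a level 2.49-fold that of con, and CCND1 stood at 1.7-fold. The calls were thus 4 members higher and 1 lower of 10, while 11.9% and 12.2% of all genes tested were higher and lower (24.1% in either direction). The CPM of the groups did not overlap for 6 of the 10, against 40.8% of all genes. The members' median log2 fold change was 0.05, against −0.01 over all genes tested. Calls come from edgeR's quasi-likelihood test at an adjusted p under 0.05 (Benjamini-Hochberg over all genes). Shares of all genes called are given at this threshold only, also where counts at an unadjusted p stand beside them. In RNA from many cells, a shift in how many cells are in a phase and a shift in RNA per cell cannot be told apart. With scaling to library size alone the all-gene median shifted by −0.135 log2 units in this comparison, and 23.4% of calls were then higher in place of 49.5%; it called 4 members higher and 4 lower, adding CCNE2, CDK4 and RB1 to the lower ones.

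NAT10 siRNA without TGF-β1 came with higher RNA of most members. CCND1, CCND3, CCNE1, CCNE2, CDK4, CDK6, CDKN1B and RB1 were higher in SiNAT10 than in con, by 1.14-fold for CCND3 to 1.45-fold for CCND1. CCND2 and CDKN2B did not pass the test. The calls were 8 members higher and 0 lower of 10 by edgeR, DESeq2 and limma-voom alike (9 and 0 at an unadjusted p under 0.05 in edgeR), while 26.4% of all genes were higher, 26.4% lower and 52.8% called in either direction. Those shares of all genes are at the adjusted threshold. The groups did not overlap for 8 of the 10, against 57.7% of all genes. The members' median log2 fold change was 0.35, against 0.02 over all genes. The median absolute change was 0.35 for the members and 0.43 for all genes. With scaling to library size alone the all-gene median shifted by 0.0557 log2 units, and 55.4% of calls were then higher in place of 50%.

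Under TGF-β1, the siRNA came with more CDKN1B, CCNE2, CDK4, RB1 and CDK6 and with less CDKN2B. CDKN1B in SiNAT10_TGFB stood at 1.68-fold its TGFB level, and CDKN2B stood at 0.569 of its TGFB level. CCND1, CCND2, CCND3 and CCNE1 did not pass the test. The calls were 5 members higher and 1 lower of 10, while 26.3% of all genes were higher, 26.8% lower and 53.1% called in either direction. The groups did not overlap for 6 of the 10, against 60.6% of all genes, so the members' counts here lie near the background. With scaling to library size alone the all-gene median shifted by 0.13 log2 units, and 61.3% of calls were then higher in place of 49.6%.

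In cells that carried the siRNA, TGF-β1 raised CDK6, CDKN2B and CCND1, by 1.36-fold, 1.35-fold and 1.21-fold, and lowered CCND2. The calls were 3 members higher and 1 lower of 10, while 5.92% of all genes were higher, 5.15% lower and 11.1% called in either direction. The groups did not overlap for 5 of the 10, against 23.4% of all genes. Library size scaling turned the share of higher calls over all genes to 36.7%, against 53.5% with TMM. The difference between the TGF-β1 effect with siRNA and that without it, the interaction, was called for CDKN1B (higher) and for CCND1 and CDKN2B (lower), which is 1 member higher and 2 lower of 10, while 1.94% and 1.91% of all genes were (3.85% in either direction). With library size scaling 68.9% of the interaction calls were higher, against 50.4% with TMM. The comparisons share libraries: con serves for TGFB and for SiNAT10, and TGFB is both tested against con and set against SiNAT10_TGFB.

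**Figure D2:**
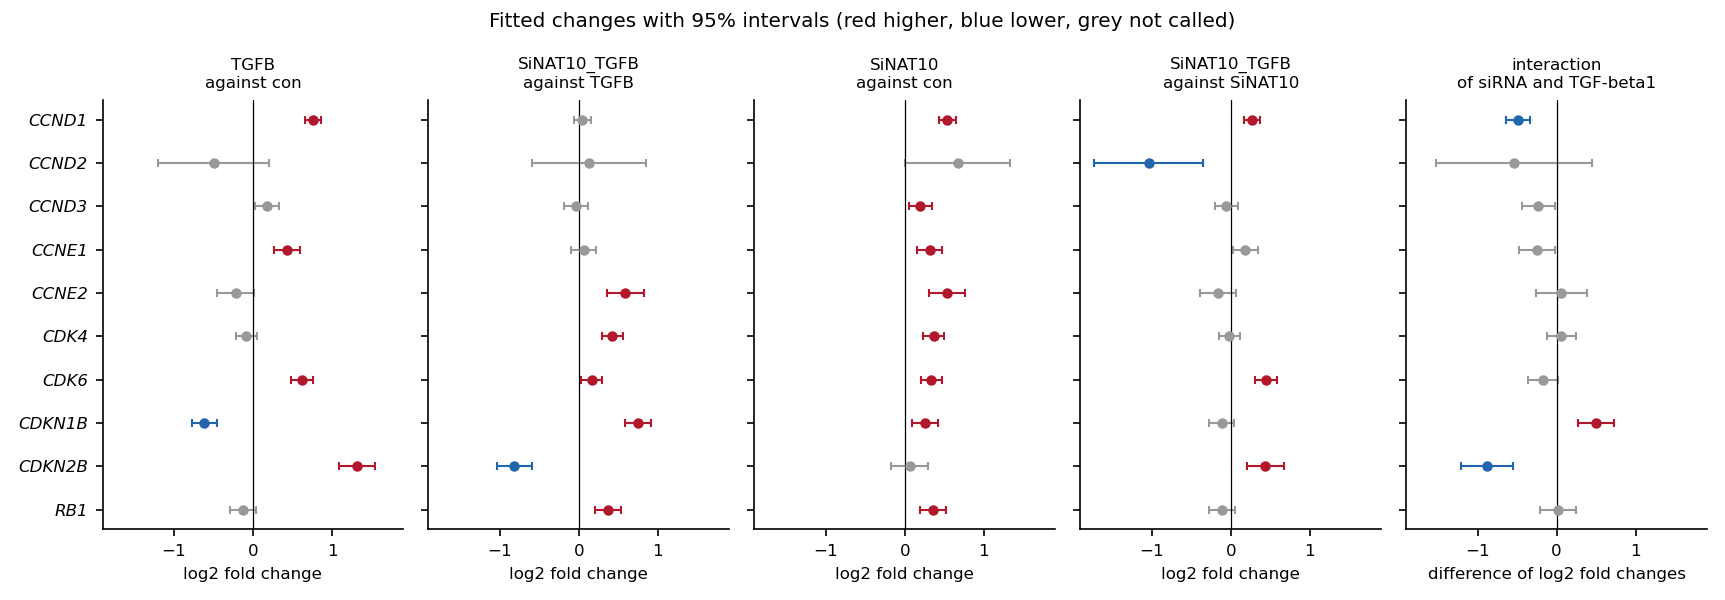
Log2 fold change of each member with its 95% interval in the 4 comparisons, and the interaction (the TGF-β1 change with siRNA minus that without it); red is higher, blue lower and grey not called at an adjusted p under 0.05. CDKN2B changed by 1.32 in TGFB against con and by −0.81 in SiNAT10_TGFB against TGFB, while its SiNAT10 value of 0.07 against con has an interval that spans 0.

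CCND1, cyclin D1 (ENSG00000110092; hg38 chromosome 11, 69641087 to 69654474, plus strand), links growth signals to CDK4 and CDK6. It stood at 953, 968 and 992.5 CPM in SiNAT10_TGFB, 892.5, 992 and 937 CPM in TGFB, 824, 779 and 812.5 CPM in SiNAT10, and 560.5, 537 and 567 CPM in con. The con libraries lay below all others, SiNAT10 lay between con and the TGF-β1 groups, and the TGF-β1 groups overlapped. On the log2 scale CCND1 rose with TGF-β1 by 0.76 (SE 0.051, adjusted p = 4.1e-11) without siRNA and by 0.27 (SE 0.05, adjusted p = 0.000543) with it. The interaction was −0.49 (SE 0.071, adjusted p = 0.00012), so the TGF-β1 change was smaller in siRNA cells. Against con, SiNAT10 cells had more CCND1 by 0.54 (SE 0.051, adjusted p = 5.39e-09). Under TGF-β1 the siRNA value was 0.05, with a 95% interval of −0.06 to 0.15. That value became 0.18 (adjusted p = 0.0041) with library size scaling and 0.25 (adjusted p = 0.000133) with the GC trend removed, and over all alternatives its adjusted p ran from 0.000133 to 0.914. Of the exon bases of CCND1, 10.3% overlap LTO1 on the opposite strand, which averaged 36.3 CPM in SiNAT10_TGFB, 41.7 CPM in TGFB, 30.9 CPM in SiNAT10 and 36.4 CPM in con, and was called lower in SiNAT10 than in con by −0.23.

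CCND3, cyclin D3 (ENSG00000112576; chromosome 6, 41934933 to 42050357, minus strand), was the second D-type cyclin by level. Its libraries stood at 128, 131 and 113 CPM in SiNAT10_TGFB, 125, 126 and 130 CPM in TGFB, 136, 130 and 120 CPM in SiNAT10, and 103, 111 and 122.5 CPM in con. These ranges overlap except that every TGFB library lay above every con library. The SiNAT10 level passed the test against con at 0.20 (SE 0.072, adjusted p = 0.0252), but the call was lost when con replicate 1 (0.14) or 2 (0.18) was left out, and likewise for SiNAT10 replicate 1 (0.15) or 2 (0.19), without a count filter (0.17) and on log2(FPKM + 1) (0.19). With the GC trend removed the same value was 0.57 (adjusted p = 7.81e-11), and over all alternatives the adjusted p ran from 7.81e-11 to 0.16. TGFB against con gave 0.18 (SE 0.071, adjusted p = 0.0771), and without con replicate 3 it was 0.24 and called (adjusted p = 0.0301, where the range over the alternatives was 0.0216 to 0.699), as it was in a fit of these groups alone (0.18, adjusted p = 0.0216) and with the GC trend removed (0.13, adjusted p = 0.0446). SiNAT10_TGFB against TGFB gave −0.04 (95% interval −0.18 to 0.11), and its direction turned after GC correction (0.35, adjusted p = 5.77e-07 in a range of 5.77e-07 to 1), with library size scaling (0.09) and without SiNAT10_TGFB replicate 3 (0.03).

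CCND2, cyclin D2 (ENSG00000118971; chromosome 12, 4273772 to 4305350, plus strand), was barely detected. It had 27, 18 and 22 counts in SiNAT10_TGFB, 21, 33 and 16 in TGFB, 55, 36 and 51 in SiNAT10, and 40, 31 and 30 in con. Every SiNAT10 library lay above every library of the other groups in CPM (1.28 to 1.89, against 0.54 to 1.16). It was called lower in SiNAT10_TGFB than in SiNAT10 at −1.04 (SE 0.333, adjusted p = 0.0461). That call was lost in 11 of 18 alternatives, where the adjusted p ran from 0.0305 to 0.312 over all 18. Among them were the omission of SiNAT10 replicate 1 (−0.94) or 3 (−0.97) and of SiNAT10_TGFB replicate 1 (−1.16), 2 (−0.94) or 3 (−1.02). SiNAT10 against con gave 0.67 (95% interval 0.01 to 1.34, adjusted p = 0.0836). The gene shares 13.8% of its exon bases with AC008012.1 on the same strand, which had 0 counts in every library.

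Together the D-type cyclins summed to 223 ± 2.74 FPKM in SiNAT10_TGFB, 216 ± 10.7 FPKM in TGFB, 189 ± 5.80 FPKM in SiNAT10 and 134.0 ± 3.96 FPKM in con. CCND1 made up 90.3% of that sum in SiNAT10_TGFB, 89.8% in TGFB, 88.1% in SiNAT10 and 85.5% in con, and CCND3 nearly all the rest. These shares are a description, with no test.

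CCNE1, cyclin E1 (ENSG00000105173; chromosome 19, 29811898 to 29824308, plus strand), activates CDK2 late in G1. Its libraries stood at 38.3, 35.8 and 39.7 CPM in SiNAT10_TGFB, 36.3, 35.5 and 37.1 CPM in TGFB, 33.9, 33.7 and 32.6 CPM in SiNAT10, and 25.1, 28.4 and 27.2 CPM in con. The order thus matched that of CCND1, with con lowest, SiNAT10 next and the TGF-β1 groups highest and overlapping. CCNE1 rose with TGF-β1 by 0.43 (SE 0.077, adjusted p = 0.000152) and with siRNA alone by 0.31 (SE 0.078, adjusted p = 0.00163). With siRNA present, TGF-β1 gave 0.18 (95% interval 0.03 to 0.34, adjusted p = 0.146), although the groups did not overlap. The interaction of −0.25 did not pass the test (adjusted p = 0.26). SiNAT10_TGFB against TGFB gave 0.06 (95% interval −0.09 to 0.22). With library size scaling that value was 0.20 and called by edgeR (adjusted p = 0.033, in a range of 0.033 to 0.835 over the alternatives).

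CCNE2, cyclin E2 (ENSG00000175305; chromosome 8, 94879770 to 94896678, minus strand), is the second CDK2-binding E cyclin. It stood at 16.4, 15.1 and 15.1 CPM in SiNAT10_TGFB, 10.5, 10.1 and 10.5 CPM in TGFB, 15.8, 18.2 and 18.1 CPM in SiNAT10, and 13.6, 12.03 and 10.4 CPM in con. Both siRNA groups lay above both groups without siRNA. CCNE2 rose with siRNA by 0.59 under TGF-β1 (SE 0.112, adjusted p = 0.000107) and by 0.53 without it (SE 0.11, adjusted p = 0.00029). With the GC trend removed these values were 0.41 and 0.37, still called. The TGF-β1 values were −0.22 without siRNA and −0.16 with it, neither past the test. Of the exon bases of CCNE2, 37% overlap INTS8 on the opposite strand, which was itself higher with siRNA, by 0.35 under TGF-β1 and by 0.26 without it. The strand setting of the counting was not given in the sources used here, so reads of these genes cannot be told apart where they overlap. CCNE1 accounted for 80.8% of the E-cyclin FPKM in SiNAT10_TGFB, 85.8% in TGFB, 76.8% in SiNAT10 and 79.4% in con.

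CDK6 (ENSG00000105810; chromosome 7, 92604921 to 92836594, minus strand) encodes a catalytic partner of the D-type cyclins. It stood at 297, 265 and 278 CPM in SiNAT10_TGFB, 246, 262 and 242 CPM in TGFB, 189, 202 and 226 CPM in SiNAT10, and 170, 158 and 161 CPM in con. The groups stepped down in this order with no overlap, although the lowest SiNAT10_TGFB library was only just above the highest TGFB library. CDK6 rose with TGF-β1 by 0.62 (SE 0.066, adjusted p = 1.31e-07) without siRNA and by 0.44 (SE 0.066, adjusted p = 3.51e-05) with it. The interaction of −0.17 was not called (adjusted p = 0.384). The siRNA alone gave 0.34 (SE 0.066, adjusted p = 0.000164), and 0.20 once the GC trend was taken out. Under TGF-β1 the siRNA value of 0.16 (SE 0.066) had an adjusted p of 0.0422, which ran from 0.000781 to 0.921 over the alternatives. It was −0.01 with the GC trend removed, and the call was lost without TGFB replicate 1 (0.15) or 3 (0.14) and without SiNAT10_TGFB replicate 1 (0.12) or 3 (0.17). The call was also lost without a count filter (0.15), with the replicate block (0.16), on log2(FPKM + 1) (0.16) and on log2(FPKM + 0.1) (0.17).

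CDK4 (ENSG00000135446; chromosome 12, 57747727 to 57756013, minus strand), the other D-cyclin kinase, was higher with siRNA. It stood at 138, 148 and 144 CPM in SiNAT10_TGFB, 113, 102 and 106 CPM in TGFB, 156, 146 and 134 CPM in SiNAT10, and 111, 115 and 113 CPM in con. All siRNA libraries lay above all others. CDK4 rose with siRNA by 0.42 under TGF-β1 (SE 0.064, adjusted p = 5.67e-06) and by 0.36 without it (SE 0.064, adjusted p = 4.22e-05), and by 0.62 and 0.55 with the GC trend removed. TGF-β1 gave −0.08 without siRNA (95% interval −0.21 to 0.05) and −0.02 with it (−0.15 to 0.11). The value without siRNA was called lower with library size scaling (−0.22, adjusted p = 0.00998) and with the GC trend removed (−0.13, adjusted p = 0.0319), and its adjusted p ran from 0.00998 to 0.822 over all alternatives. Of the exon bases of CDK4, 43.2% overlap TSPAN31 on the opposite strand, which averaged 16.8 CPM in SiNAT10_TGFB, 14.3 CPM in TGFB, 16.3 CPM in SiNAT10 and 16.1 CPM in con, and was called higher in SiNAT10_TGFB than in TGFB by 0.23.

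CDK4 and CDK6 summed to 68.3 ± 0.185 FPKM in SiNAT10_TGFB, 54.0 ± 1.16 FPKM in TGFB, 62.7 ± 2.01 FPKM in SiNAT10 and 48.8 ± 0.300 FPKM in con. CDK6 made up 33.5% ± 2.02 of that sum in SiNAT10_TGFB, 37.7% ± 2.06 in TGFB, 26.8% ± 3.29 in SiNAT10 and 27.1% ± 1.05 in con (SD, n = 3). Its share was thus higher in both TGF-β1 groups, with no overlap with the groups that had none. This ratio is a description, with no test.

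CDKN2B, p15INK4b (ENSG00000147883; chromosome 9, 22002903 to 22009363, minus strand), the gene with the 2 upstream GC boxes, had the largest TGF-β1 change of the 10 in untransfected cells. It stood at 23.1, 20.1 and 23.5 CPM in SiNAT10_TGFB, 37.7, 33.7 and 46.0 CPM in TGFB, 14.9, 18.0 and 16.5 CPM in SiNAT10, and 16.7, 14.9 and 15.6 CPM in con. TGFB stood alone at the top, SiNAT10_TGFB came next, and SiNAT10 and con overlapped. CDKN2B rose with TGF-β1 by 1.32 without siRNA (SE 0.11, adjusted p = 2.15e-09) and by 0.44 with it (SE 0.112, adjusted p = 0.0109). The interaction of −0.88 (SE 0.156, adjusted p = 0.0012) means a smaller change in siRNA cells. It kept this direction in all 23 alternatives and was past the threshold in 22, the exception being a linear model on log2(FPKM + 1) without a filter (−0.76, adjusted p = 0.079, where the range was 5.15e-07 to 0.079). Under TGF-β1 the siRNA came with less CDKN2B, by −0.81 (SE 0.108, adjusted p = 1e-06), and without TGF-β1 the value was 0.07 (95% interval −0.17 to 0.30). The TGF-β1 call in siRNA cells was lost without SiNAT10_TGFB replicate 1 (0.41, adjusted p = 0.0506) or 3 (0.40, adjusted p = 0.0545) and on log2(FPKM + 1) (0.36), where the adjusted p ran from 0.00065 to 0.184 over the alternatives. Per 100 FPKM of CDK4 and CDK6 together there were 8.05 ± 0.681 FPKM of CDKN2B in SiNAT10_TGFB, 17.8 ± 3.04 in TGFB, 6.48 ± 0.735 in SiNAT10 and 7.90 ± 0.485 in con, again as a description.

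**Figure D3:**
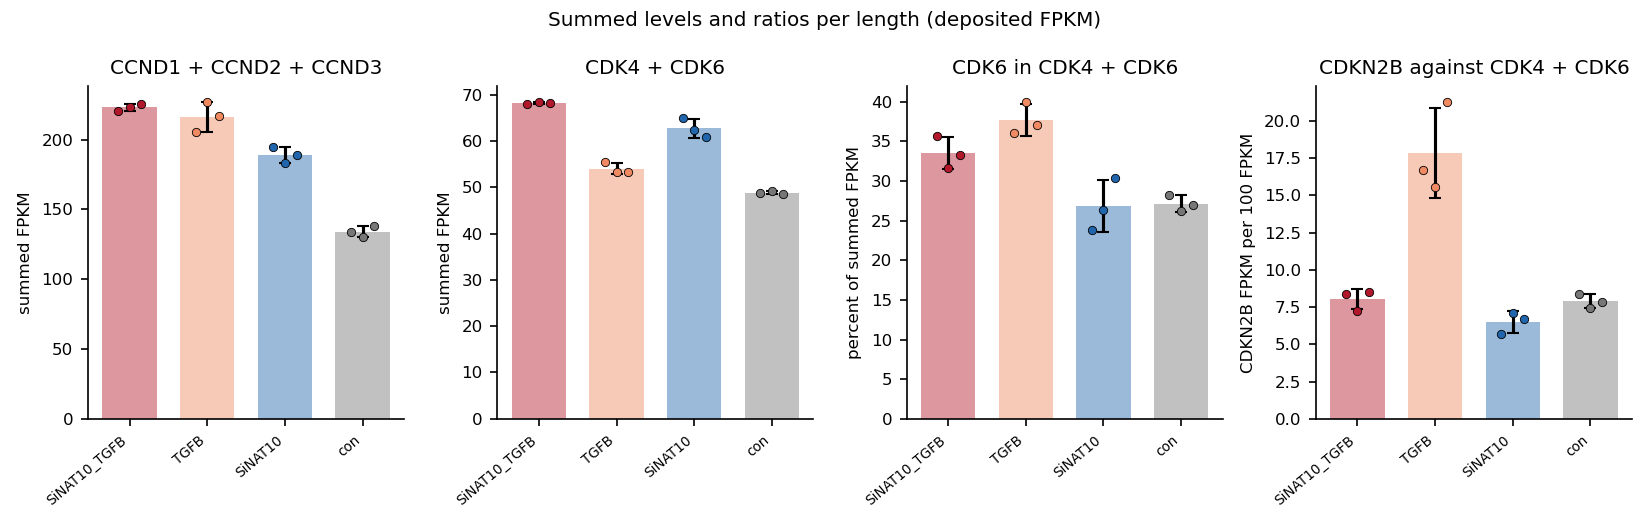
Summed FPKM of the D-type cyclins and of CDK4 with CDK6, the share of CDK6 in the kinase sum and CDKN2B per 100 FPKM of that sum; bars are means of 3 libraries with SD, and points are libraries. D-cyclin RNA is lowest in con (134.0 FPKM), and the CDKN2B ratio is highest in TGFB (17.8).

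CDKN1B, p27KIP1 (ENSG00000111276; chromosome 12, 12715058 to 12722371, plus strand), went the opposite way to CDKN2B. It stood at 66.2, 69.4 and 70.2 CPM in SiNAT10_TGFB, 43.7, 39.95 and 38.6 CPM in TGFB, 64.6, 78.0 and 80.4 CPM in SiNAT10, and 63.5, 62.0 and 61.3 CPM in con. The TGFB libraries lay below every other library, and those of SiNAT10_TGFB overlapped those of SiNAT10. CDKN1B fell by 0.61 with TGF-β1 in untransfected cells (SE 0.079, adjusted p = 2.19e-06), while with siRNA the value was −0.12 (95% interval −0.28 to 0.04, adjusted p = 0.44). The interaction was 0.50 (SE 0.11, adjusted p = 0.00902), positive in all 23 alternatives and called in 22, with 0.48 and an adjusted p of 0.126 on log2(FPKM + 1), in a range of 0.000352 to 0.126. With siRNA, CDKN1B rose by 0.75 under TGF-β1 (SE 0.079, adjusted p = 2.94e-08) and by 0.26 without it (SE 0.077, adjusted p = 0.00796). The smaller of these was 0.24 and not called on log2(FPKM + 1), with an adjusted p of 0.0677 in a range of 0.000283 to 0.0677. No other gene's exons overlap CDKN1B or CDKN2B in GENCODE release 29.

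RB1 (ENSG00000139687; chromosome 13, 48303726 to 48599436, plus strand), the substrate of these kinases, was higher with siRNA. It stood at 168, 172 and 180 CPM in SiNAT10_TGFB, 133, 143 and 125 CPM in TGFB, 162, 185 and 214 CPM in SiNAT10, and 155, 143 and 140 CPM in con. Every siRNA library lay above every library without siRNA. RB1 rose with siRNA by 0.37 under TGF-β1 (SE 0.079, adjusted p = 0.000347) and by 0.36 without it (SE 0.079, adjusted p = 0.000543). With the GC trend removed both values were 0.19 and still called. TGF-β1 gave −0.12 without siRNA (95% interval −0.29 to 0.04) and −0.11 with it (−0.27 to 0.05).

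**Figure D4:**
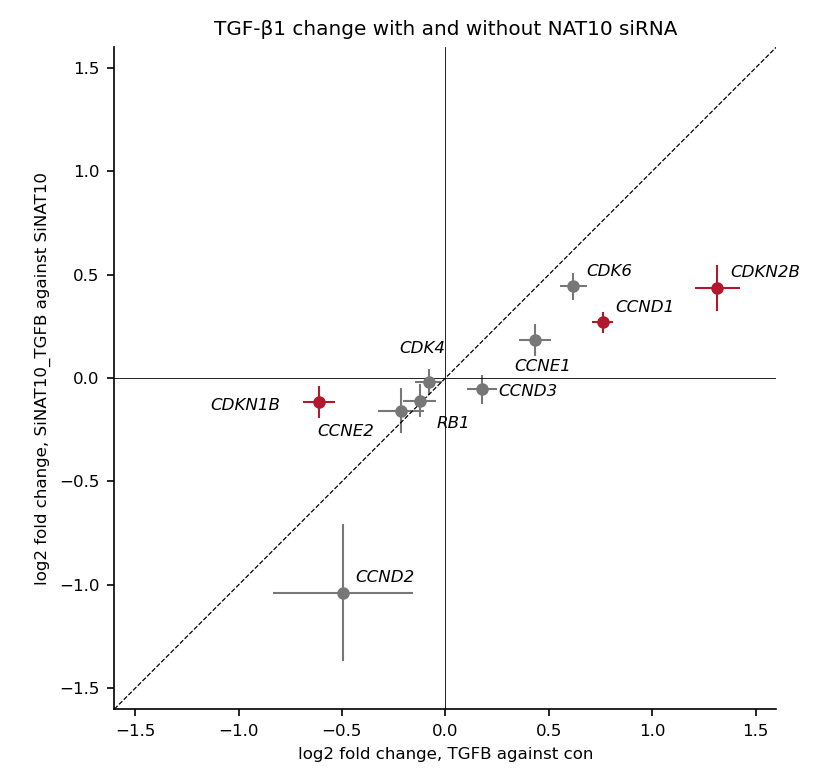
TGF-β1 log2 fold change of each member in siRNA cells (vertical) against that in untransfected cells (horizontal), with SE bars; these axes share no library. Points in red (CCND1, CDKN1B and CDKN2B) had a called interaction, and the dashed line marks equal changes; all 3 lie nearer 0 on the vertical axis than on the horizontal one.

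The wider pathway was read from lists compiled from general knowledge. In TGFB against con, 12.2% of all genes fell and 11.9% rose. Of 5 other CDK inhibitors, 1 fell and 0 rose there by edgeR (1 and 0 at an unadjusted p under 0.05). That gene was CDKN2C (p18INK4c), which also fell in every other comparison, by 0.61 in TGFB against con, 0.48 in SiNAT10_TGFB against TGFB, 0.78 in SiNAT10 against con and 0.32 in SiNAT10_TGFB against SiNAT10. CDKN1A (p21), a p53 target that inhibits CDK2, rose with siRNA by 1.57 under TGF-β1 and by 1.76 without it. It averaged 238 ± 10.2 CPM in SiNAT10_TGFB, 80.2 ± 5.04 CPM in TGFB, 249.2 ± 3.05 CPM in SiNAT10 and 73.4 ± 3.39 CPM in con. The siRNA alone also came with a call for CDKN1C, at −0.92 on about 1 CPM. It was lost in 7 of 18 alternatives, with −0.40 (adjusted p = 0.392) once the GC trend was removed and −0.41 (adjusted p = 0.397) with the replicate block as well, in a range of 0.00851 to 0.397 by edgeR, DESeq2 and limma. It was also lost with no count filter (−0.95), without con replicate 1 (−0.96) or 3 (−0.77) and without SiNAT10 replicate 1 (−0.82) or 2 (−0.78). The list's medians lay between −0.22 and −0.12 in the 4 comparisons, and those of all genes between −0.01 and 0.02.

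Among 20 other CDKs, activators and turnover factors, 2 rose and 3 fell with TGF-β1 in untransfected cells, with a median of −0.04. Of all genes, 11.9% rose and 12.2% fell there. MYC, a transcription factor that drives G1 progression and represses CDKN2B, rose by 0.95 (SE 0.071). It averaged 103 ± 5.83 CPM in SiNAT10_TGFB, 150 ± 4.34 CPM in TGFB, 77.3 ± 7.80 CPM in SiNAT10 and 77.8 ± 3.93 CPM in con. Its interaction of −0.54 (SE 0.101, adjusted p = 0.00211) was the call of this list there, and on log2(FPKM + 1) it was −0.52 and not called (adjusted p = 0.0776 in a range of 8.45e-06 to 0.0776). With siRNA, 10 rose and 5 fell under TGF-β1 and 9 rose and 5 fell without it, with medians of 0.16 and 0.06. Of all genes, 26.3% rose and 26.8% fell under TGF-β1, and 26.4% rose and 26.4% fell without it. SKP2, the ubiquitin ligase subunit that marks p27 for removal, fell by 1.16 and by 1.27 in these comparisons, to 37.5 ± 3.03 CPM in SiNAT10_TGFB, against 83.5 ± 3.03 CPM in TGFB, and to 44.7 ± 4.82 CPM in SiNAT10, against 107.5 ± 4.42 CPM in con. CDC25A, a phosphatase that activates CDK2, rose by 0.97 and by 0.88. With TGF-β1 in siRNA cells 2 rose, MYC by 0.42 and USP2 to 1.6 CPM in SiNAT10_TGFB, against 0.563 CPM in SiNAT10, and 2 fell. Of all genes, 5.92% rose and 5.15% fell there. CABLES1, a CDK-binding adaptor, fell by 0.73, and SKP2 fell by 0.25. The SKP2 call was lost in 9 of 18 alternatives. Among them were the omission of SiNAT10 replicate 2 (−0.25) or 3 (−0.17) and of SiNAT10_TGFB replicate 1 (−0.23) or 2 (−0.21). The rest were limma-voom (−0.25), a fit of these groups alone (−0.25), the replicate block (−0.25), log2(FPKM + 1) (−0.23) and log2(FPKM + 0.1) (−0.24).

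Of 17 pocket proteins and E2F factors, 6 fell and 0 rose in TGFB against con by edgeR (8 and 0 at an unadjusted p under 0.05), with a median of −0.14. Of all genes, 12.2% fell and 11.9% rose there. E2F8 and E2F2 fell by 0.51 each and RBL1 (p107), a relative of RB1, by 0.34. With siRNA, 6 rose and 2 fell under TGF-β1 and 4 rose and 4 fell without it. Of all genes, 53.1% and 52.8% were called in either direction in these comparisons, so the list's counts lie near the background. E2F7, a repressor of E2F targets, rose by 1.31 and 1.11, while E2F8, the other atypical repressor, fell by 0.88 and 1.31. E2F1, an activator E2F, gave −0.54 and −0.30, both called lower. With the GC trend removed the first was −0.01 and not called (adjusted p = 0.903, in a range of 3.32e-14 to 0.903), and the second was 0.19 and called higher (adjusted p = 0.000924, in a range of 1.44e-05 to 0.021), by edgeR in both cases. With TGF-β1 in siRNA cells 0 of the 17 passed edgeR's test in either direction, and at an unadjusted p under 0.05 there were 0 higher and 2 lower. Of all genes, 11.1% were called there.

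Of 36 E2F target and DNA synthesis genes, 9 fell and 0 rose in TGFB against con by edgeR (15 and 1 at an unadjusted p under 0.05). The list's median was −0.11. Of all genes, 12.2% were lower, 11.9% higher and 24.1% called in either direction at the adjusted threshold. The list's total of adjusted calls there lies near the background, and its split by direction differs. MCM2, a subunit of the replicative helicase, fell by 0.28, POLA1, the catalytic subunit of primase-bound DNA polymerase, by 0.27 and TYMS, thymidylate synthase, by 0.31. With siRNA, 4 rose and 16 fell under TGF-β1 and 3 rose and 16 fell without it, with medians of −0.12 and −0.14. Of all genes, 26.3% rose and 26.8% fell under TGF-β1, and 26.4% rose and 26.4% fell without it. In either direction 53.1% and 52.8% of all genes were called, so the list's totals lie near the background and its split by direction differs. CCNA2, the S-phase cyclin, fell by 2.43 and 2.24, to 35.1 ± 1.18 CPM in SiNAT10_TGFB, against 189.5 ± 5.70 CPM in TGFB, and to 39.2 ± 4.39 CPM in SiNAT10, against 185 ± 6.31 CPM in con. GINS1, a helicase cofactor, fell by 1.58 and 1.53 and LIG1, the replicative ligase, by 1.00 and 0.95, while CDC25A, which stands in both lists, rose. With the GC trend removed LIG1 gave −0.65 and −0.61, both still called. With TGF-β1 in siRNA cells 3 fell, MCM2 by 0.25, LIG1 by 0.26 and RRM2 by 0.24. Of all genes, 5.15% fell there. The call of MCM2 was lost without SiNAT10 replicate 1 (−0.18) and on log2(FPKM + 1) (−0.23). The call of LIG1 was lost without SiNAT10 replicate 1 (−0.21) or 2 (−0.24) or SiNAT10_TGFB replicate 2 (−0.25) or 3 (−0.23), in a fit of these groups alone (−0.26) and on log2(FPKM + 1) (−0.22). The call of RRM2 was lost without SiNAT10 replicate 3 (−0.15) or SiNAT10_TGFB replicate 1 (−0.20) or 3 (−0.25). It was also lost in a fit of these groups alone (−0.24), on log2(FPKM + 1) (−0.22) and on log2(FPKM + 0.1) (−0.23). The list summed to 4345 to 4520 CPM in SiNAT10_TGFB, 4940 to 5020 CPM in TGFB, 4647 to 4891 CPM in SiNAT10 and 5266 to 5467 CPM in con.

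**Figure D5:**
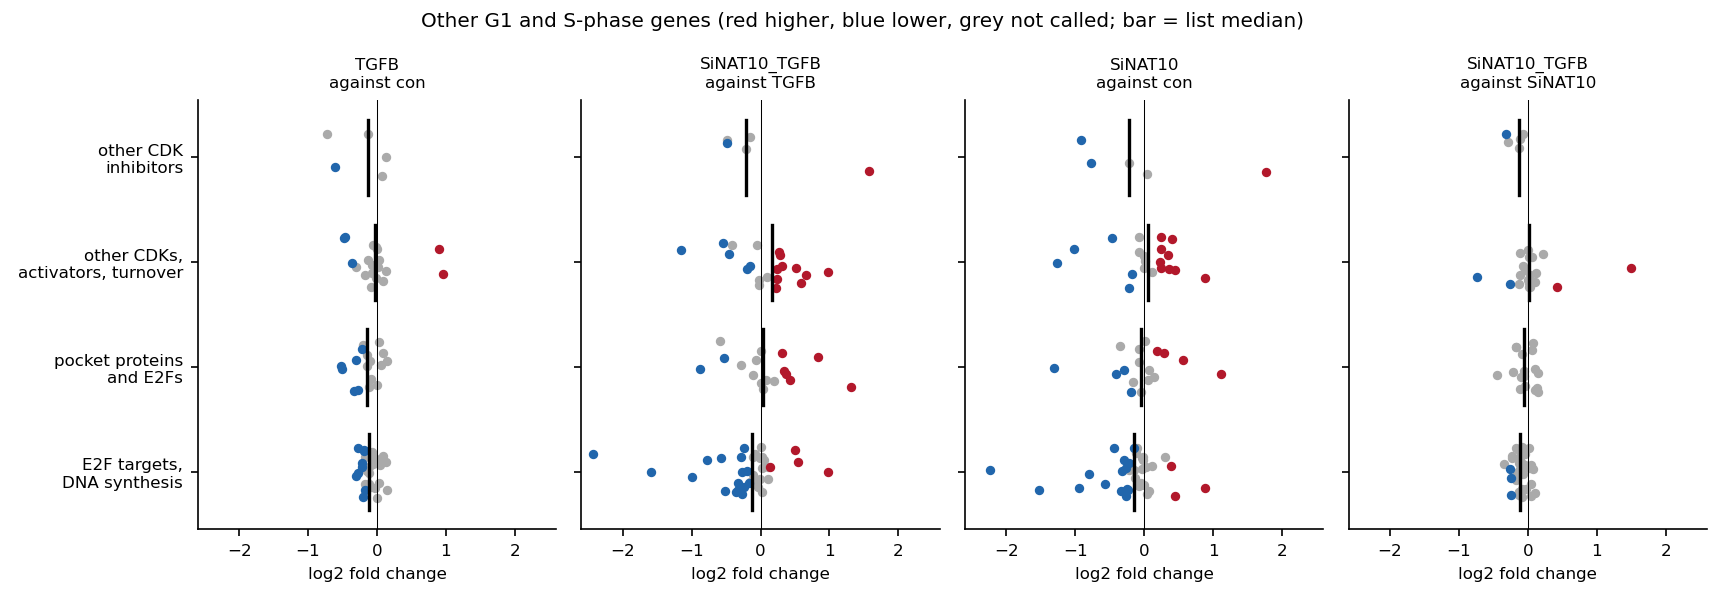
Log2 fold changes of the other genes of the G1 and S-phase pathway in the 4 comparisons, each point 1 gene; red is higher, blue lower, grey not called, and the vertical bar is the list's median. CDKN1A at 1.57 and 1.76 and CCNA2 at −2.43 and −2.24 are the outermost points of the siRNA panels.

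The members that ranged most over the 4 group means were CDKN2B, CCND2 and CDKN1B, and for each the 3 genes with the most similar pattern are given, by Pearson's r of log2 CPM over the 12 libraries among genes with a mean of at least 50 counts. These correlations are descriptions over libraries that fall into 4 groups and share their scaling. For CDKN2B they were MIAT (r = 0.975), a long noncoding RNA, UBE2J1 (0.974), an endoplasmic reticulum ubiquitin-conjugating enzyme, and KRT14 (0.973), a keratin. KRT14 averaged 0.843 CPM in SiNAT10_TGFB, 4.97 CPM in TGFB, 0.508 CPM in SiNAT10 and 0.468 CPM in con. MIAT averaged 2.17, 6.93, 0.825 and 0.901 CPM in the same order. Both genes reached the mean of 50 counts mainly through TGFB, where CDKN2B is also highest. Their likeness to CDKN2B is thus partly fixed by that filter. For CDKN1B they were DEPDC7 (0.982), SLC35A5 (0.981) and CHAMP1 (0.978), a protein of chromosome alignment at mitosis. For CCND2, on few counts, they were TTLL5 (0.92), PPFIBP1 (0.911) and SASH1 (0.904). Over the groups these averaged 66.3 to 80.6 CPM, 81.6 to 116.2 CPM and 69.1 to 81.7 CPM. CCND2 averaged 0.738 to 1.67 CPM, so it varied more in proportion than they did.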

How the data were processed

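Gene counts and FPKM were deposited by the authors for 58735 genes in 12 libraries. Per the submitters' processing notes, the tools were fastp and HISAT2 2.2.1 and the build hg38. Counting tool, annotation and strand setting: not given in the sources used here. The gene length in the deposited table equalled the merged exon length of GENCODE release 29 for the members. The FPKM of the authors are the counts per length times 1 factor per library, so they are no independent measurement and serve for levels per length and for alternatives.

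The counts went into edgeR 4.0.16 in R 4.3.3. After filterByExpr (18560 genes) and TMM scaling (factors 0.922 to 1.07), 1 quasi-likelihood fit with 4 group means gave 4 comparisons and the interaction, with Benjamini-Hochberg adjustment over all genes and calls at an adjusted p under 0.05. SE is the absolute log2 fold change over the square root of F. CPM of 3 counts was 0.0871 to 0.115, which covers counting error only. No replicate pair was alike within sampling noise (chi-square per degree of freedom 4.15 to 20.6). Alternatives were library size, RLE and upper quartile scaling, no filter, DESeq2 1.42.0, voom in limma 3.58.1, only the 2 groups compared, a replicate block, removal of the trend on GC content (a spline of 5 degrees of freedom), limma on log2(FPKM + 1) without a filter and on log2(FPKM + 0.1), an adjusted p under 0.01, and omission of each library. The fit was tested on simulated counts.

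The members and lists were chosen with earlier results of these data known. Beyond the members, up to 4 genes per list and comparison were named by smallest p, then the 3 genes most like each of the 3 members of widest range, and genes that overlap a member. Promoter stretches come from RefSeq (GRCh38.p14).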

Additional observations from a re-analysis of the deposited data

Results flagged for a closer look

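The TGF-β1 effect differed between siRNA and untransfected cells for 3 members, by edgeR's test of the difference itself. The difference, on the log2 scale, was −0.49 for CCND1 (TGF-β1 change 0.27 with siRNA, 0.76 without), 0.50 for CDKN1B (−0.12 with siRNA, −0.61 without) and −0.88 for CDKN2B (0.44 with siRNA, 1.32 without). In each case the change in siRNA cells was the smaller in size. With limma on log2(FPKM + 1) the calls of CDKN1B (adjusted p = 0.126) and CDKN2B (adjusted p = 0.079) were lost.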

How the results depend on the processing

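Over 18 alternatives per comparison (23 for the interaction), 887 member values kept direction and side of the threshold, 31 lost a call, 12 gained one and 20 turned. Of the listed genes named, 847 values kept both, 38 lost a call and 2 turned. For TGFB against con, library size scaling called 8 members, and log2(FPKM + 1) called 2874 genes. For SiNAT10_TGFB against SiNAT10, log2(FPKM + 1) called 1304 genes and 2 members, and an adjusted p under 0.01 called 1302 genes and 2 members; omission of single libraries gave 2 to 4 members and 1556 to 2112 genes. For the interaction, GC removal called 1392 genes, or 1272 with the replicate block as well, log2(FPKM + 1) called 356 genes and 1 member, and an adjusted p under 0.01 called 383 genes. The cause of these shifts was not tested.

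Directions turned for 2 values that had been called. E2F1 in SiNAT10 against con, −0.30 and called lower, was 0.19 and called higher with GC removal, with or without the block. CDK6 in SiNAT10_TGFB against TGFB, 0.16 and called higher, was −0.0064 with GC removal and −0.0072 with the block too, neither called. The other values that turned had not been called. CCND3 in SiNAT10_TGFB against TGFB was 0.094 with library size scaling, 0.35 with GC removal (0.35 with the block too) and −0.080 to 0.027 with single libraries left out. CCND2 there ran from −0.043 (without TGFB replicate 3) to 0.44. CDKN2B in SiNAT10 against con ran from −0.0057 (without SiNAT10 replicate 2) to 0.13. In SiNAT10_TGFB against SiNAT10, CDK4 ran from −0.074 to 0.034 and CCND3 from −0.10 to 0.0074, turning for CDK4 without SiNAT10 replicate 1 or SiNAT10_TGFB replicate 1 and for CCND3 without SiNAT10_TGFB replicate 3. The RB1 interaction was −0.0068 with upper quartile scaling, −0.0010 with GC removal and −0.00027 with the block too, and omission of single libraries took it from −0.077 to 0.12; that of CCNE2 went from −0.046 to 0.15.

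Replicate numbers did not pair the samples: same-numbered libraries correlated at −0.337 to 0.221, with 1 of 18 pairs over 0.1. With the replicate block 4093, 9533, 9421, 1798 and 589 calls were shared with the fit without it. The block ended the calls of CDK6 in SiNAT10_TGFB against TGFB (adjusted p = 0.065) and CCND2 in SiNAT10_TGFB against SiNAT10 (adjusted p = 0.071), and of no other member. Depth limits CCND2 most, at 16 to 55 counts.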
